A study of Homo sapiens with 8 samples.

Results

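The subject is the set of transcripts whose 3′ untranslated region (3′ UTR, the part of an mRNA after the stop codon) was divided over several exons, as measured in THP-1 cells, a human line grown from an acute monocytic leukaemia. The deposited counts list 3′ UTR segments, and a transcript counts as split when its identifier has more than 1 segment on the ordinary chromosomes. Among 64545 segments of 56570 transcripts, 4201 transcripts with 11658 segments were split and 49745 had a single segment. Members were the split segments with a mean of at least 50 reads over the chase libraries, with identical count profiles kept once. This left 1335 distinct segments of 1567 transcripts, out of 15830 distinct segments in all at that minimum, of which 14477 came from single-segment transcripts. Members were chosen by their mean total reads, so tests of total reads further on use values that also entered the choice. Label measurements entered it only where identical count profiles were merged. Of the other split segments 9854 lay below the minimum, and 5274 of these had no read in any chase library. RBM25 and the transcript ENST00000543248 lay just inside the minimum with a mean of 50.3 reads each, and a segment of PSTK and the fourth of 5 segments of ENST00000419266 lay just outside with 49.9 and 49.7.

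SLAM-seq follows RNA age by feeding cells 4-thiouridine (4sU), which iodoacetamide alkylates so that labelled uridines are read as C in place of T. The cells took up 30 uM 4sU for 12 h with fresh medium every 3 h, were washed, and were then kept in 3 mM uridine. There was 1 library at each of 0, 20 and 40 min and 1, 2, 8 and 12 h of this chase, and 1 library of cells that never received 4sU. Every library came from THP-1 cells, and the spike-in of Drosophila S2 RNA was not used here. As no condition was replicated, the tests rest on how far the 7 chase libraries depart from a straight line in time, and whether each time was a culture of its own is not labelled. Member segments held between 1327466 reads (12 h) and 1791517 reads (8 h) per chase library, and 410502 reads without 4sU. Of 9 monocytic marker genes 8 reached a mean of 50 reads in their most covered segment, with MPO at 20.4, while 9 of 10 markers of other cell types lay at or below 25 reads (the highest being COL1A1) and PECAM1 had no named segment.

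An intron in a 3′ UTR matters because splicing deposits an exon junction complex just upstream of each junction. When a junction lies well beyond the stop codon, the complex is still on the mRNA as translation ends, and the UPF1 helicase can then trigger nonsense-mediated decay (NMD). Junctions close to the stop codon are usually cleared by the terminating ribosome and do not have this effect, and a distance of about 50 bases is the textbook boundary.

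The sequences below show the second layout, with a junction close to the stop codon. They begin with the stop codon, and capitals mark the upstream 3′ UTR part, from the base after the stop codon to the last exon junction. Lower case after the capitals is the start of the last part. RPS3, which encodes a protein of the small ribosomal subunit, is given for 3 transcripts that share the upstream part and differ in the last part. The others are genes whose parts are compared further on, chosen after their values were seen.
RPS3 (ENST00000278572): taaCAGtttcttacttttgtgctttatttg
RPS3 (ENST00000527446): taaCAGcctcttccatgagtggggagcccg
RPS3 (ENST00000531188): taaCAGggtctccttggcagctgtattctg
RPS25: tgaATAGgtccaaccagctgtacatttgga
CTPS1: tgaTCTTGTAGCggatgattcttcaagaga
SOD2: taaACCACGATCGTTATGCTGAtcataccc
PPIH: tagTCCAGACAAAGACTGAATCAGgccttc
In these mRNAs the upstream part had between 3 bases (RPS3) and 21 bases (PPIH). The sequences are those of GENCODE 29 transcripts (GRCh38), matched by transcript identifier.

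The layout of the 3′ UTR could be matched to the annotation for 2874 split transcripts. Upstream parts had a median length of 33 bases and last parts a median of 411.5 bases. Of 2683 protein-coding transcripts among them, 245 (9.13%) had their last junction more than 50 bases after the stop codon. Of 188 transcripts that the annotation types as NMD targets, 187 did. Reads of this 3′ end method fell almost wholly on the last part: in 1597 split transcripts with at least 50 reads over all parts, the last part held a median of 99.5% of the reads. It held at least 90% in 1303 of them (81.6%) and less than 50% in 104 (6.51%). The polyadenylation signal AATAAA, searched on the transcript strand, stood in the final 40 bases of 53.3% of 870 covered last parts and of 54.8% of 13874 covered single-segment 3′ UTRs. Among upstream parts over 200 bases, 15 of the 24 with at least 50 reads held AATAAA (62.5%), against 21 of 213 below 50 reads (9.86%). Among upstream parts of up to 50 bases the signal stood in 2 of 129 covered parts (1.55%) and in 29 of 2488 others (1.17%). Upstream parts were counted per transcript, so that a shared part can count repeatedly, and were searched over their whole length. A match of these letters is a description of the sequence and not a mapped cleavage site.

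A called loss of label was found in 89.7% of split segments and 94.1% of single-segment ones, and the median resolved half-life was 3.06 h and 2.83 h. Neither difference between the classes was tested, and split segments had fewer reads (a median of 255 against 304 per library) and a lower labelled share at the start. Label loss was tested as a decline over the chase of the labelled reads among a segment's own reads, with a Benjamini-Hochberg adjusted p under 0.05 as the threshold. The label declined in 1189 of 1325 split segments tested (89.7%), against 93.7% of all 15802 segments tested and 94.1% of 14459 single-segment ones. It rose in no split segment and in 3 single-segment ones, which is 0.019% of all segments. No split segment rose at an unadjusted p under 0.05 or in DESeq2 either (0 in both). Among 1154 split segments with a resolved half-life the median was 3.06 h, and the middle 50% lay between 2.32 and 4.61 h. The 13358 single-segment ones had a median of 2.83 h, with the middle 50% between 2.20 and 4.28 h. Half-lives under 2 h made up 13.2% of the split and 16.4% of the single-segment values, and half-lives over 8 h made up 10.2% and 7.88%. A half-life here is that of the labelled share, which falls as new unlabelled RNA joins a segment's reads. Decay that removes labelled and unlabelled reads alike leaves the share unchanged. Where the total level changes, this value need not be the half-life of the RNA.

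The order of the 2 medians held in each of 6 classes of read number, shown in the plot of half-lives by class and read number. Segments with 50 to 100 mean reads had medians of 2.64 h (split) and 2.46 h (single), and those with 200 to 500 reads had 2.91 and 2.66 h. At 1000 to 5000 reads the medians were 4.47 and 4.34 h. Above 5000 reads they were 11.4 h over 18 split segments and 7.25 h over 223 single-segment ones. From the libraries up to 2 h alone the order turned, with 2.71 h for split and 2.90 h for single-segment transcripts, although only 249 and 3750 half-lives could then be resolved. Leaving out the 8 h library lowered the log2 ratio of the medians from 0.12 to 0.070.

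**Figure D1:**
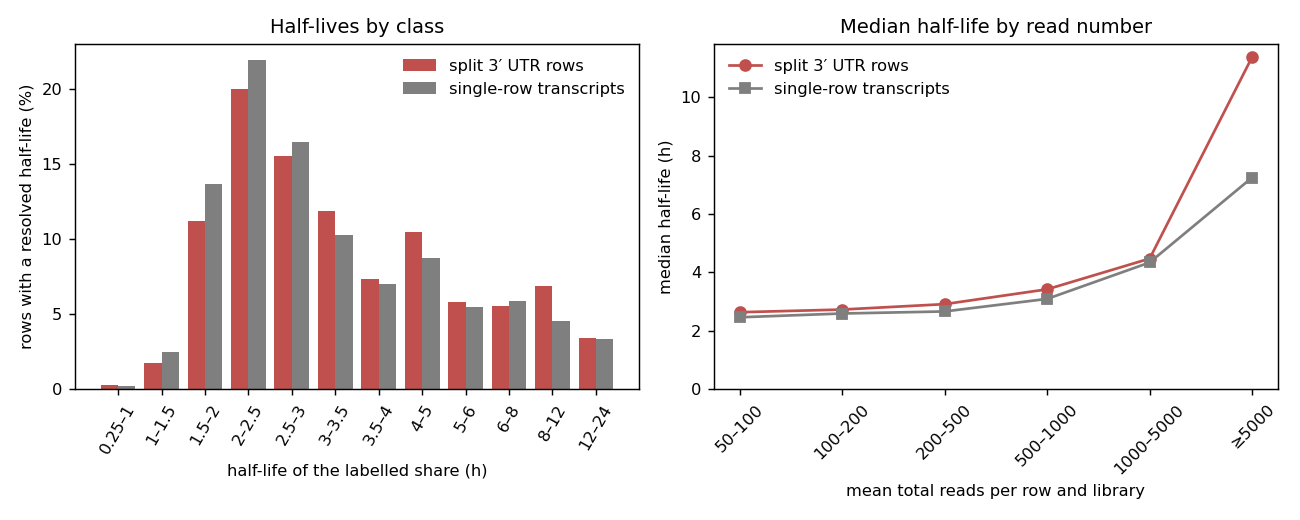
Left, share of segments with a resolved half-life (y axis, %) in each half-life class (x axis, h) for split segments (red bars) and single-segment transcripts (grey bars). Right, median of the resolved half-lives (y axis, h) by mean total reads per segment (x axis), where the red points lie above the grey points in all 6 classes. They lie farthest above them at 5000 reads or more (11.4 against 7.25 h, over 18 and 223 resolved segments).

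The labelled share at the end of the pulse was lower in split segments, with a median of 37.2% against 43.0%. After 8 h of chase the median split segment kept 20.1% of its early labelled share and the median single-segment one 16.1%, and after 12 h they kept 5.88% and 3.69%. Summed over reads, 24.4% of member reads were labelled at 0 h (95% exact interval 24.3 to 24.5), 11.5% at 8 h and 6.96% at 12 h. Without 4sU 0.0122% were labelled, which was 50 reads. Intervals cover counting error only, since no molecular identifiers were used. A read can only show conversions at its T positions, and the last 100 bases of the transcript up to a part's end held a median of 31% T for split and 33% T for single-segment ends. Genes of the ribosome and of the respiratory chain, whose mRNAs are long-lived, made up 4.68% of split and 2.33% of single-segment segments tested. They kept a median of 91.5% of the label at 8 h when split and 94.1% when single-segment. Of 62 such split segments 20 declined (32.3%), and of 337 single-segment ones 131 did (38.9%), against 93.7% of all segments tested. Without these symbols, an alternative chosen after seeing the data, the medians were 3.03 and 2.82 h.

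Split segments were next divided by how far the last junction lies from the stop codon, and no difference between these sets was tested. Segments of transcripts whose last junction lay over 50 bases after the stop codon declined in 147 of 158 cases (93.0%), with a median half-life of 3.26 h over 143 resolved values. Those with a nearer junction declined in 710 of 821 cases (86.5%), with a median of 3.19 h over 687. Half-lives over 8 h made up 9.09% of the first and 13.1% of the second set. After 8 h the median segment of any kind, resolved or not, kept 19.7% of its early labelled share with a distant junction and 24.4% with a near one. Among those with a distant junction, 83 segments of protein-coding transcripts had a median of 3.04 h over 78 resolved values. The 75 segments of NMD-type transcripts had a median of 3.65 h over 65. Of the 158 segments, 123 share bases with the 3′ UTR of a single-segment transcript, so their reads need not come from the transcript with the distant junction. Only 13 last parts with a distant junction had no base in a matched 3′ UTR of a single-segment transcript. All 13 declined and were resolved, with a median of 2.78 h. Of the 365 such last parts with a near junction 326 declined, and the 318 resolved ones had a median of 3.10 h. Segments without a resolved half-life are missing from the second median only. This count leaves out single-segment transcripts only: 1 of the 13, in HNRNPDL, shares bases with a split transcript whose junction is near. The other 12 had a median of 2.71 h, from 1.81 h (WDR3) to 6.75 h (the readthrough BOLA2-SMG1P6). In the WDR3 part 3 of 9 reads were labelled without 4sU, and its fitted half-life depends on the background taken from them. Transcripts with more than 5 parts had 141 segments tested, of which 136 declined, with a median half-life of 2.55 h over 133 resolved values.

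Genes of RNA surveillance and splicing were looked up among the members. For reading these counts, 8.52% of the 9390 named genes tested had a split segment, and 93.7% of all segments tested declined. Of 21 genes of NMD and the exon junction complex, 2 had a member segment, and both declined: UPF1, the central helicase of NMD, with a half-life of 2.29 ± 0.28 h (SE) and a junction 3 bases after the stop codon, and CASC3, a core protein of the exon junction complex, with 2.59 ± 0.26 h and a junction at 41 bases. In their most covered segment of any kind, all 21 genes declined. Of 13 genes of SR splicing factors, which bind exonic enhancers, SRSF2 alone had split segments, and both declined (3.97 ± 0.72 h and 5.10 ± 1.52 h), although the second lies inside the first. Single-segment 3′ UTRs cover both SRSF2 segments wholly, so their reads need not come from a split transcript. Of 29 hnRNP and related RNA-binding proteins 5 had split segments, and 10 of their 15 segments declined. These 15 overlap one another and form 8 separate stretches, of which 6 declined in every segment and 2 in none. In their most covered segment of any kind, 28 of the 29 genes declined. HNRNPDL, a paralogue of the AU-rich element binding protein HNRNPD, had a last part with a junction at 22 bases (3.37 ± 0.38 h) and an NMD-type last part with a junction at 127 bases (3.18 ± 0.37 h). The second part, of 255 bases, lies wholly inside the first, of 2320 bases, so that both values rest on some of the same reads. The 4 segments of HNRNPA1, a shuttling splicing regulator, begin at the same base and are 1 of these stretches. They did not pass the test, and their labelled share at 0 h was between 22.3% and 25.1%. Of 12 symbols listed as NMD-regulated, such as ATF4, 11 were named in the data, and none of these had a member segment.

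Among members with at least 200 mean reads and a well-fitted rate, the shortest half-lives belonged to 2 transcripts without a name in the annotation and to KDM2A, ZNF267 and RUBCNL. The segment of ENST00000362053, whose last part starts 130 bases from one of CIR1, a transcriptional corepressor, had 1.39 ± 0.21 h. The last part of ENST00000254658, which starts at the same base as a segment of the clock repressor PER2, had 1.47 ± 0.28 h. From 0 to 2 h its total reads rose from 117 to 450 and its labelled reads from 75 to 120. Its share thus fell up to 2 h without a fall in labelled reads, and at 8 h 1 of 184 reads was labelled. KDM2A, a histone H3 lysine demethylase, had 1.5 ± 0.15 h. Its labelled shares from 0 to 12 h were, in order, 49.0%, 42.9%, 42.4%, 30.7%, 22.2%, 0.44% and 0.41%. Its fall was under way within the first hour of chase. ZNF267, a zinc-finger protein, had 1.51 ± 0.20 h and RUBCNL, an autophagy regulator, 1.52 ± 0.26 h. Single-segment 3′ UTRs cover 93.5% of the bases of the KDM2A segment, so its reads need not come from a split transcript. They cover none of the ZNF267 segment, and for RUBCNL and the 2 unnamed transcripts the layout was not matched.

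The longest resolved half-lives belonged to CRIP1, a LIM-domain protein (23.7 ± 4.33 h), GNAS, the stimulatory G protein alpha subunit (21.5 ± 3.83 h), and RPL7, a protein of the large ribosomal subunit (19.8 ± 4.08 h). SMDT1, the regulator of the mitochondrial calcium uniporter, had 18.9 ± 4.19 h and ATP5MD, a subunit of ATP synthase, 16.5 ± 3.54 h. The labelled shares of CRIP1 from 0 to 12 h were 12.2%, 11.4%, 11.2%, 10.3%, 10.2%, 9.16% and 7.92%. The values moved little over the whole chase, in contrast to KDM2A. The 5 slow segments began with labelled shares of 12.2% to 24.3%, below the median of the members. Single-segment 3′ UTRs cover the whole RPL7 segment and 71.2% of the bases of the GNAS segment. Reads of these 2 need not come from split transcripts. The segments of CRIP1, SMDT1 and ATP5MD share no base with a matched single-segment 3′ UTR.

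In 151 transcripts 2 parts carried enough reads to be compared with each other, the upstream (5′) part with the downstream (3′) part. They came from 102 named genes and 27 transcripts without a name, and several shared a part, so that they held 127 distinct upstream and 149 distinct downstream segments. The downstream part was the last part in 143 pairs. The upstream part held a median of 19.2% of the reads of the pair and held the larger share in 32 pairs. Of the 107 pairs with a matched layout, 77 had an upstream part of at most 75 bases. The sources used here do not say how a read that covers only a few bases of a part was counted. Reads of a part need not come from the split transcript: in 80 of the 107 pairs at least 1 part shares bases with the 3′ UTR of a single-segment transcript, and in 17 both parts lie wholly inside such 3′ UTRs. In 7 pairs the parts lay in the 3′ UTRs of 2 different genes joined by a readthrough transcript.

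At the end of the pulse the downstream part usually carried more label than the upstream part of the same transcript. The labelled share was higher downstream in 92 pairs, lower in 15 and did not pass the test in 44, so that 70.9% of pairs were called (edgeR, adjusted p under 0.05). The median labelled share at 0 h was 18.9% upstream and 27.3% downstream, and the median fitted difference was 0.59 on the log2 scale. In the 77 pairs with a short upstream part 53 were higher and 6 lower downstream, and in the 30 with a longer one 13 were higher and 5 lower. T content moved in the same direction: the 100 bases up to the part's end held a median of 23% T upstream and 30% T downstream and more T downstream in 91 of 107 pairs. Across these pairs the T difference and the fitted label difference had a Pearson r of 0.41 and a Spearman rho of 0.36, over pairs that partly share segments and all share libraries. The part of T content in the difference was not tested beyond this.

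RPS3 showed the widest gap. Its upstream part of 3 bases, shared by several RPS3 transcripts, had labelled shares of 1.08%, 1.76%, 1.77%, 1.47%, 1.16%, 0.40% and 0.71% over the 7 chase libraries in order of time. These rest on 4 to 11 labelled reads per library, and the part's counts are identical to those of a single-segment transcript. The part held 372 reads at 0 h and 1138 in the library without 4sU. In ENST00000278572, whose last part held nearly all RPS3 reads, the downstream shares were 7.16%, 7.14%, 7.40%, 7.72%, 7.88%, 8.02% and 7.11% at the same times. In ENST00000527446, which splices the same 3 bases to another last exon, they were 35.8%, 27.1%, 33.1%, 30.0%, 34.5%, 30.9% and 21.5%. The 3 segments did not overlap in labelled share in any chase library. The fitted difference between the parts at 0 h was 2.30 ± 0.22 on the log2 scale for the first transcript and 4.40 ± 0.24 for the second (adjusted p = 1.61e-12 and 2.13e-21, edgeR).

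Among the 6 pairs with the most reads in the lesser part, the downstream part was the more labelled in 4. In YBX1, a Y-box protein that binds mRNA, 7.22% of upstream and 21.8% of downstream reads were labelled at 0 h. COX7C, a subunit of cytochrome c oxidase, had 11% and 14.4%, TMEM258, a subunit of the oligosaccharyltransferase, 8.15% and 19.7%, and the cancer-testis gene XAGE1B 4.01% and 11.8%. XAGE1B has near-identical copies, so its reads may be divided among them. Each of these 4 differences passed the test (edgeR). Half-lives of both parts of COX7C, TMEM258 and XAGE1B were not resolved. The 2 remaining pairs of this group are unnamed transcripts in the CELF2 region, and their shares at 0 h did not pass the test of a difference (adjusted p = 0.0917 and 0.0902, edgeR).

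Label loss was called different between the parts in 23 pairs. In 93 pairs both parts declined, in 24 neither did, in 24 the downstream part alone passed the test of a decline and in 10 the upstream part alone, which is no test of a difference between them. In 82 pairs both parts had a resolved half-life, with medians of 3.21 h upstream and 3.17 h downstream, and in 72 of these they lay within a factor of 2. Over the 151 pairs the label fell faster downstream in 14 and slower in 9, and 128 passed in neither direction, so that 15.2% were called (edgeR, adjusted p under 0.05). A p above the threshold does not show that both parts lost label alike. Without the 8 h library only 7 pairs were called, and 6 of the 23 calls were kept in every leave-out of a library. GTPBP6, named after its values were seen, was among these 6 and was called slower downstream. Its downstream part had 3 of 10 reads labelled without 4sU, and shares of 76.9% at 0 h and 69.1% at 12 h. The fit of pairs subtracts no background. The libraries up to 2 h alone gave 4 calls, and of the called pairs named here they held CIRBP alone. Of the 23 pairs, 3 lay in readthrough transcripts of 2 genes. Layouts were matched for 15 of them, and in 3 of these (CTPS1, RPS25 and YBX1) neither part shares a base with a single-segment 3′ UTR. The plot of upstream against downstream values shows both comparisons.

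**Figure D2:**
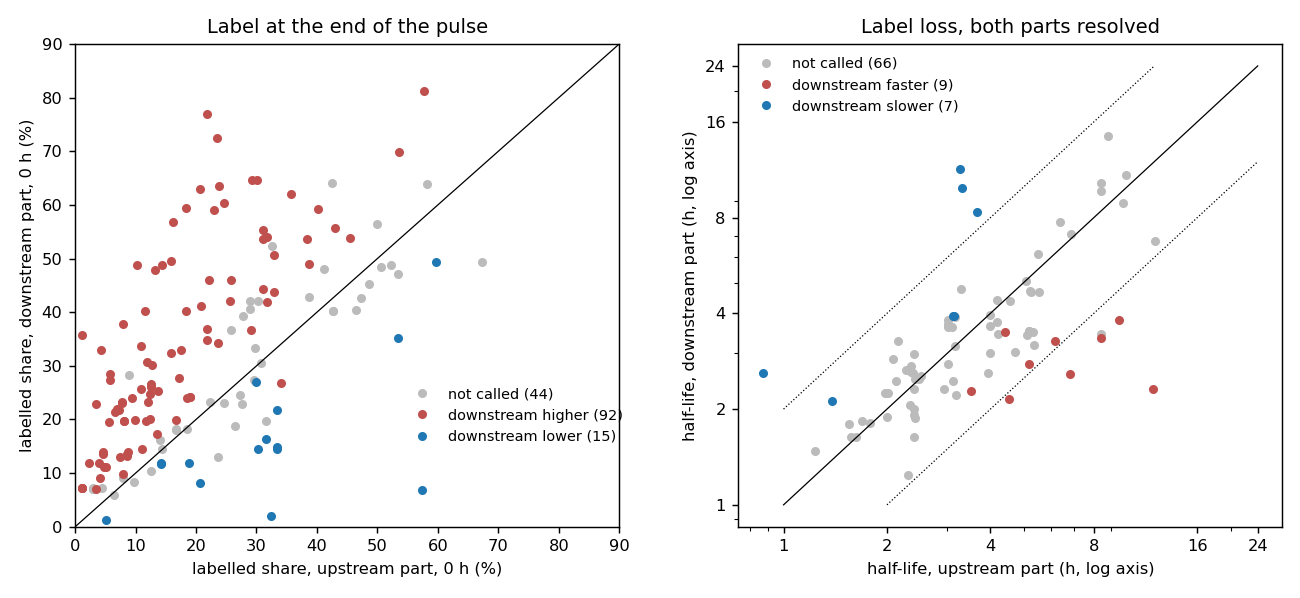
Left, labelled share at 0 h of the downstream part (y axis, %) against that of the upstream part (x axis, %) for 151 pairs, with the line of equality: 92 pairs called higher downstream (red), 15 lower (blue), 44 not called (grey). Right, half-lives of the downstream (y axis, h, log scale) and upstream part (x axis, h, log scale) for the 82 pairs with both resolved, with lines of equality and of a factor of 2 (dotted), between which 72 pairs lie.

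The largest loss differences in well-covered pairs were found in CIRBP, MSH5-SAPCD1 and SAR1A (faster downstream) and in ENST00000362053, the CELF2 region and YBX1 (slower downstream). CIRBP, the cold-inducible RNA-binding protein (chromosome 19, plus strand, parts starting at 1272443 and 1274648, hg19), had upstream labelled shares of 33.4%, 33.9%, 37.3%, 37.3%, 35.0%, 10.4% and 3.66% from 0 to 12 h. Its downstream shares were 21.7%, 22.6%, 21.6%, 20.0%, 9.66%, 1.37% and 1.28%. The downstream part was lower in every library, and it had come down at 2 h while the upstream part had not. The annotation types this transcript as an NMD target. Its layout was not matched, so its junction distance and any bases shared with single-segment 3′ UTRs are not known. Half-lives were 4.53 ± 0.93 h upstream and 2.15 ± 0.34 h downstream, and the fitted difference was -0.26 ± 0.06 log2 units per hour (adjusted p = 0.00188, edgeR). That call was lost without the 8 h library (adjusted p = 0.204), in DESeq2 (0.0856) and with labelled reads scaled by library (0.498).

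SAR1A, a small GTPase of COPII vesicle budding (chromosome 10, minus strand, parts starting at 71911175 and 71909979, hg19), has 2 long parts of 1057 and 1156 bases, both wholly inside 3′ UTRs of single-segment transcripts. Upstream shares were 31.7%, 29.6%, 29.8%, 31.4%, 28.1%, 11.2% and 2.54%, and downstream shares 53.9%, 50.4%, 50.5%, 52.9%, 48.7%, 9.02% and 2.35%. The downstream part carried more label up to 2 h and slightly less from 8 h on. The half-lives of 4.42 ± 0.60 h and 3.51 ± 0.68 h lay within their errors of each other, while the fitted loss differed by -0.12 ± 0.03 log2 units per hour (adjusted p = 0.00476, edgeR; 0.574 without the 8 h library). MSH5-SAPCD1 is a readthrough transcript of the meiotic mismatch-repair homologue MSH5 and its neighbour SAPCD1. Its half-life was 6.15 ± 0.94 h in the part of MSH5 and 3.27 ± 0.76 h in the part of SAPCD1 (adjusted p = 0.000158, edgeR; 0.0951 without the 8 h library).

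In the opposite direction, ENST00000362053 had 1.39 ± 0.21 h upstream and 2.12 ± 0.16 h downstream (adjusted p = 0.0311, edgeR). This call was lost without the 0 h library (0.0508) or the 8 h library (0.331), with labelled reads scaled by library (0.311) and in DESeq2 (0.0502). Of the transcripts in the region of CELF2, an RNA-binding splicing regulator, ENST00000379261 and ENST00000427450 share the downstream segment. Their half-lives were 3.12 ± 0.19 h and 3.11 ± 0.19 h upstream and 3.94 ± 0.35 h downstream (adjusted p = 0.00107 and 0.00101, edgeR). Without the 8 h library these adjusted p-values were 0.183 and 0.181, and with labelled reads scaled by library 0.662 and 0.739. In YBX1 the upstream shares were 7.22%, 6.66%, 7.77%, 9.16%, 6.45%, 5.61% and 5.41%, and the downstream shares 21.8%, 22.6%, 22.6%, 23.9%, 22.5%, 25.3% and 23.7%. Upstream label fell slightly and the downstream share did not pass the test of a decline. The fitted difference was 0.06 ± 0.01 log2 units per hour (adjusted p = 0.00217, edgeR; 0.739 with labelled reads scaled by library).

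Other called pairs, chosen after their values were seen, had fewer reads in 1 part. SOD2, the manganese superoxide dismutase of mitochondria (chromosome 6, minus strand, parts starting at 160103506 and 160100148, hg19), has the upstream part of 19 bases printed above, and both of its parts lie inside single-segment 3′ UTRs. Its upstream shares were 14.4%, 14%, 12.9%, 15.5%, 21.1%, 10.5% and 5.29%, and its downstream shares 48.7%, 49.6%, 46.6%, 49.1%, 48.3%, 12.2% and 4.75%. The parts lay far apart up to 2 h and close together from 8 h on. Half-lives were 9.46 ± 3.32 h and 3.81 ± 0.51 h (adjusted p = 0.000536, edgeR), and the call was kept in every leave-out. RPS25, a protein of the small ribosomal subunit with an upstream part of 4 bases, had upstream shares between 5.31% and 9.28% with no called decline (adjusted p = 0.821, edgeR). Downstream, 21.5% of reads were labelled at 0 h, 27.1% at 2 h and 3.54% at 8 h, with a half-life of 3.86 ± 1.10 h. The difference in loss was called (adjusted p = 0.000158, edgeR), but not without the 8 h library (0.0770) or with labelled reads scaled by library (0.127).

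PPIH, the cyclophilin of the U4/U6 spliceosomal particle (chromosome 1, plus strand, parts starting at 43133091 and 43142255, hg19), went the other way. Its upstream part of 21 bases had shares of 14%, 14.5%, 14.3%, 8.28%, 5.43%, 1.67% and 2.5%, and the downstream part 16.2%, 15.3%, 16.6%, 17.0%, 16.2%, 12.1% and 6.72%. The parts were close up to 40 min, and the upstream share was lower from 1 h on. Half-lives were 3.25 ± 0.90 h and 11.4 ± 2.11 h (adjusted p = 0.00975, edgeR). This call was lost without the 20 min (0.0650) or 8 h library (0.331) and in DESeq2 (0.123). CTPS1, a CTP synthase, has an upstream part of 9 bases in 3 pairs, and only that of ENST00000372621, with a downstream part of 908 bases, was called. Its half-lives were 5.18 ± 1.92 h upstream and 2.77 ± 0.47 h downstream (adjusted p = 0.0265, edgeR). It too was lost without the 20 min (0.0871) or 8 h library (0.869), in DESeq2 (0.0732) and with labelled reads scaled by library (0.639). The pairs of ENST00000372616, the transcript printed above, and ENST00000541520 share the upstream part and had 3.52 h downstream each (adjusted p = 0.291 and 0.295, edgeR). PCBD2, a pterin carbinolamine dehydratase, had a mean of only 82 reads in each part. Its upstream share was 35.6% at 0 h, 20.2% at 8 h and 25.5% at 12 h. Its downstream share was 62.0%, 9.80% and 2.00% at these times. The difference in loss was called (adjusted p = 0.000445, edgeR), also in every leave-out.

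The readthrough transcript AC010132.3 joins the 3′ UTR of PSMA2, a subunit of the proteasome core, to that of C7orf25. Its upstream shares were 43.0%, 41.2%, 43.6%, 45.8%, 42.4%, 31.2% and 18.6%, and its downstream shares 55.7%, 56.3%, 60.9%, 57.5%, 49.5%, 0.862% and 0%. The part of PSMA2 kept label to the end while the part of C7orf25 had almost none at 8 h. Half-lives were 11.9 ± 2.06 h and 2.31 ± 0.62 h (adjusted p = 1.46e-08, edgeR). AC007192.1 joins PIK3R2, a regulatory subunit of PI3 kinase, to IFI30, a lysosomal thiol reductase, with 3.65 h in the first part and 8.32 h in the second (adjusted p = 0.000536, edgeR; 0.0576 without the 8 h library). In both transcripts the parts compared are 3′ ends of different genes.

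**Figure D3:**
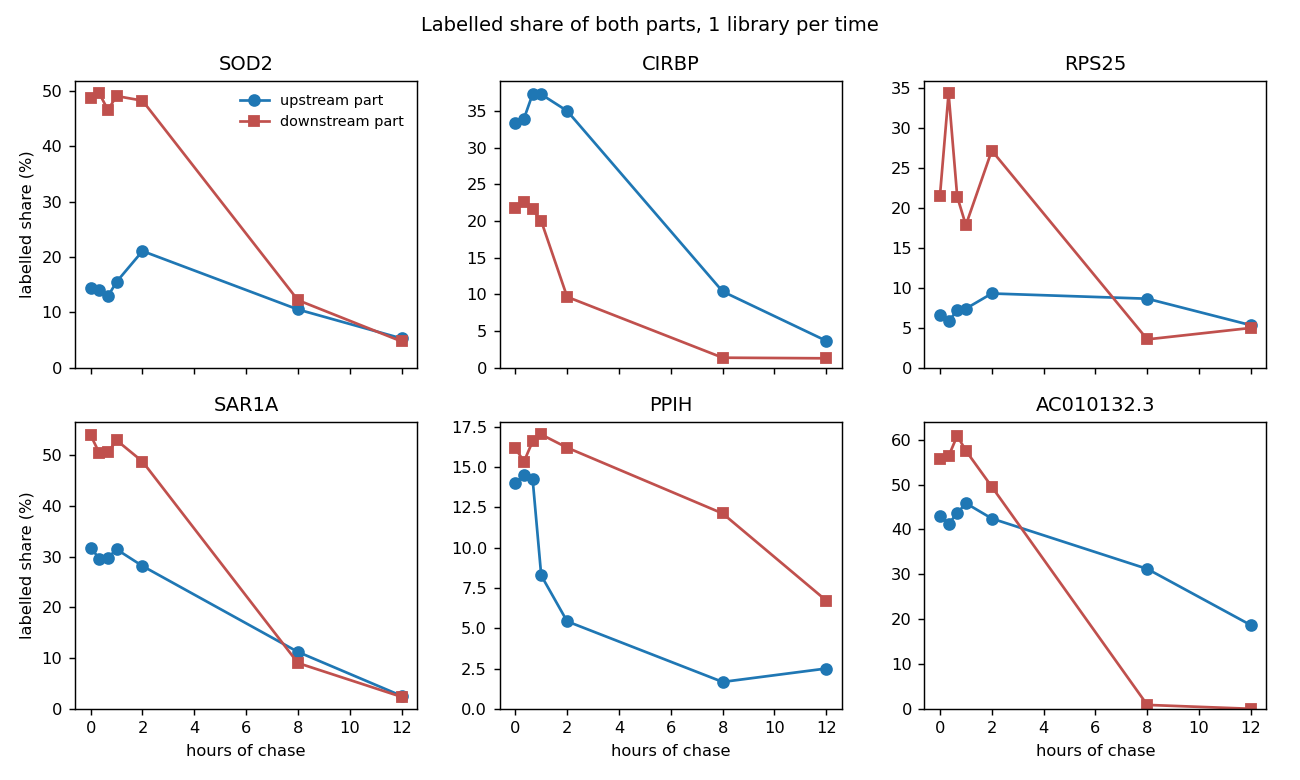
Labelled share (y axis, %) of the upstream part (blue circles) and downstream part (red squares) against hours of chase (x axis), 1 point per library, in 6 transcripts. In SOD2, RPS25, SAR1A and AC010132.3 the downstream part starts higher and falls faster, in CIRBP it starts lower, and in PPIH the upstream part drops from 14.3% at 40 min to 5.43% at 2 h.

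The distribution of total reads between the parts moved with time in some pairs. The downstream part gained in 18 pairs and lost in 16, so that 22.5% of pairs were called (edgeR on total reads, adjusted p under 0.05). In 20 of these 34 pairs the call was kept in every leave-out. CIRBP gained downstream, from 11.8% of the reads of both parts at 0 h over 14.2%, 12.0%, 13.1% and 14.9% up to 2 h, to 22.0% and 25.5% in the last 2 libraries (adjusted p = 1.38e-05, edgeR). In total level its upstream part fell by 1.22 on the log2 scale over 12 h (adjusted p = 9.52e-06, edgeR). The level of its downstream part did not pass the test (0.648). TMEM33, a membrane protein of the endoplasmic reticulum whose parts both lie inside single-segment 3′ UTRs, went from 25.5% at 0 h to 37.1% and 39.6% in the last 2 libraries (adjusted p = 0.00292, edgeR). In both genes the 8 h and 12 h libraries lay above all earlier ones. ENST00000439301, whose last part starts 143 bases from one of PHF20, a chromatin reader, went from 53.6% to 69.2% (adjusted p = 0.0344, edgeR). That call was lost without the 0 h (0.0732), 40 min (0.0612), 1 h (0.0511) or 12 h library (0.591).

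RPS3 lost most downstream, with 39.2%, 33.1%, 37.4%, 25.5%, 22.8%, 15.0% and 12.4% of the pair's reads in the last part of ENST00000527446 from 0 to 12 h (adjusted p = 3.86e-05, edgeR). Its values from 1 h on lay below the earlier ones. From 0 to 12 h the downstream part went from 240 to 121 reads and the upstream part from 372 to 851. That upstream part of 3 bases shares its counts with a single-segment transcript. SAR1A stayed between 54.4% and 58.3% up to 2 h and then 40.2% and 38.7% in the last 2 libraries (adjusted p = 3.06e-05, edgeR). IL1RN, the interleukin-1 receptor antagonist, with both parts inside single-segment 3′ UTRs, had 67.4% at 0 h, 75.6%, 72.7%, 76.0%, 69.4% and 69.8% up to 8 h and 51.7% at 12 h (adjusted p = 0.00496, edgeR), a call that rested on the 12 h library (0.704 without it).

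**Figure D4:**
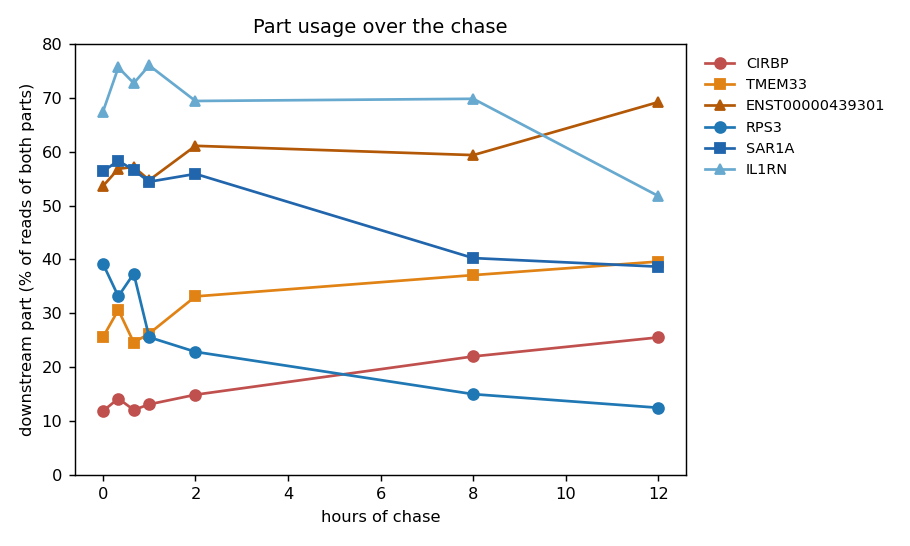
Share of the pair's total reads in the downstream part (y axis, %) against hours of chase (x axis) for 6 transcripts, 1 point per library. CIRBP, TMEM33 and ENST00000439301 end above their start (25.5%, 39.6% and 69.2% at 12 h), and RPS3 (ENST00000527446), SAR1A and IL1RN end below it (12.4%, 38.7% and 51.7%).

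Split and single-segment forms were also compared within a gene. In 327 genes with a resolved half-life for both, the medians were 3.27 h (split) and 3.24 h (single), the split form was longer in 167 genes and shorter in 159, and 11 genes differed by more than a factor of 2. Forms of 1 gene can overlap and then count some of the same reads. In 49 genes where the compared segments shared no base the medians were 3.17 and 3.27 h, with the split form longer in 24 and shorter in 25, and 14 genes differed by more than a factor of 2. Among these 14, named after their values were seen, CNOT9, a subunit of the CCR4-NOT deadenylase, had 2.5 h in a split segment and 8.79 h in a single-segment one. CIAO2A, of the cytosolic iron-sulfur assembly machinery, had 10.1 and 2.45 h. CCNC, the cyclin of the Mediator kinase module, had 3.74 and 1.42 h. These differences were not tested.

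Total levels of split segments were also followed over the chase. They rose in 380 of 1335 (28.5%) and fell in 322 (24.1%), beside 28.9% and 25.2% of all 15830 segments (edgeR with TMM factors, adjusted p under 0.05). In bulk RNA fewer cells with a transcript and less of it per cell cannot be told apart. RUBCNL, among the fastest to lose its label, rose by 1.47 on the log2 scale over 12 h (adjusted p = 0.00011, edgeR), and KDM2A by 0.46 (0.0124). Of the slow members, GNAS fell by 0.51 (adjusted p = 0.000172, edgeR), SMDT1 by 0.46 (0.000898), ATP5MD by 0.45 (0.000478) and RPL7 by 0.42 (0.00277), and CRIP1 did not pass the test (0.656).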

How the data were processed

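The authors deposited raw counts per 3′ UTR segment: all reads, and the converted reads they call nascent, called labelled here. Per the labels' protocols, libraries were made with a 3′ end kit (QuantSeq 3′ FWD). Trim Galore 0.6.5, bcl2fastq 2.17.1.14 and the builds dm3 and hg19 are named in the submitters' processing notes. Not given in the sources used here are the aligner, the counter and how many conversions make a read labelled. Segment starts are hg19 as deposited. GENCODE 29 (GRCh38) served by transcript identifier for names (1107 of 1335 members, 82.9%), part lengths and sequences, and no coordinates were mixed.

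Left out were 3056 segments on alternative contigs and, as members, 43 transcripts with 1 segment on X and 1 on Y. Segments with identical counts were kept once, and 142 members share their counts with a single-segment transcript. Label decline was fitted in edgeR 4.0.16 (R 4.3.3; quasi-likelihood, labelled counts against hours, offset log of the segment's own total) for all 15802 segments with 20 or more labelled reads and a mean total of 50 or more. The error has 5 residual degrees of freedom. Pairs were fitted over 14 columns (2 parts in 7 libraries) with library as a factor, part and part by hours, adjusted over 151 pairs. Half-lives are binomial maximum-likelihood fits with the segment's share without 4sU as background, shrunk with 100 prior reads. They counted as resolved with a called decline, at least 10 excess reads at 0 h, a standard error on the log scale of at most 0.5 and a value from 0.25 to 24 h. Total levels used TMM factors. DESeq2 1.42.0, other filters, library scaling and left-out libraries were alternatives. The fits were tested on simulated data.

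Members and lists were chosen with earlier results of these data known. Named were: up to 5 pairs per direction with the largest called loss difference and at least 200 mean reads in both parts, the 5 shortest and 5 longest half-lives (at least 200 reads, standard error at most 0.25), the 6 pairs with most reads in the lesser part, up to 3 pairs per direction of usage, list members, and those beside the minimum of 50. Others are marked as chosen after their values were seen.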

Additional observations from a re-analysis of the deposited data

How the results depend on the processing

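With 1 library per condition there is no replicate, and no paired analysis was possible because the labels give each condition 1 library and no shared replicate numbers. Leaving out each chase library gave 1085 to 1196 declining split segments, a log2 ratio of median half-lives (split over single) of 0.070 to 0.14, 7 to 25 pairs called for label loss, 97 to 110 for the labelled share at 0 h, 27 to 33 for usage and 633 to 720 split segments called for total level. The libraries up to 2 h alone gave 273 declining segments, a reversed half-life ratio of -0.10, 4 pairs for label loss and 4 for usage. That window holds fewer libraries and little loss of label. A mean total of at least 200 gave 704 of 794 segments, and in 42 pairs 7 calls for label loss, 33 for the share at 0 h and 11 for usage (2 gained and 9 lost downstream). In 296 pairs with at least 10 mean reads, 35 were called for label loss and 60 for usage. Counts under these filters move with the number of segments or pairs tested. With 1 segment per gene, chosen after seeing the data, 731 of 800 declined and the half-life ratio was 0.19, and with labelled reads scaled by library it was 0.14. The remaining alternatives stayed within 1.5 times the count reported, or within the spread of the leave-outs for the half-life ratio. For the difference within a gene the yardstick was its standard error over genes. DESeq2 called 18 pairs for label loss and 34 for usage. Reads in the lesser part, often below 200, limit what a pair can show.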
